A study of Mus musculus with 18 samples.

Results

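The genes described here are the receptor chains through which IL-4 is read, Il4ra, Il2rg and Il13ra1, the 4 Janus kinases Jak1, Jak2, Jak3 and Tyk2, and the adaptor Irs2. They were chosen by symbol, and these 8 of the 43309 genes in the deposited table all passed the filter on low values. The cells were bone marrow-derived macrophages of C57BL/6 mice, grown for 7 days in 10% serum with 10 ng/ml M-CSF in every group. M1 cells then received 100 ng/ml LPS with 20 ng/ml interferon gamma for 18 h, and M2 cells received 20 ng/ml IL-4 for 18 h. An unstimulated group was not analysed here, so a difference between M1 and M2 cells cannot be assigned to either stimulus. The groups were PGRN knockout M1, 14-3-3ε knockout M1, WT M1, PGRN knockout M2, 14-3-3ε knockout M2 and WT M2, with 3 libraries each. The PGRN knockout lacks progranulin, encoded by Grn. The 14-3-3ε knockout is named myeloid in the labels, which do not give the driver of the deletion, the deleted part of Ywhae or the age of the mice.

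IL-4 binds IL-4Rα, the product of Il4ra, which then recruits a second chain. In the type I receptor that chain is the common gamma chain, encoded by Il2rg and shared with the receptors for IL-2, IL-7, IL-9, IL-15 and IL-21, and in the type II receptor it is IL-13Rα1, encoded by Il13ra1, which also admits IL-13. JAK1 sits on IL-4Rα, JAK3 on the common gamma chain, and TYK2 or JAK2 on IL-13Rα1, and the active kinases phosphorylate IL-4Rα, where STAT6 and IRS2 dock. In macrophages the STAT6 branch drives alternative activation genes and the IRS2 branch feeds phosphoinositide 3-kinase. JAK1 and JAK2 also serve the interferon gamma receptor, and JAK1 and TYK2 the type I interferon receptor, so the kinases are shared with the M1 stimulus.

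The genes lie apart in the mouse genome. In GENCODE M21 (GRCm38), Il4ra is at chr7:125552120-125579474 on the plus strand, Il2rg at chrX:101264378-101268255 on the minus strand and Il13ra1 at chrX:36112110-36171259 on the plus strand. Jak1 is at chr4:101152367-101265282 (minus), Jak2 at chr19:29251828-29313080 (plus), Jak3 at chr8:71676296-71690575 (plus), Tyk2 at chr9:21104068-21131243 (minus) and Irs2 at chr8:10984681-11008458 (minus). All 8 are protein-coding, and the longest coding transcript has 25 exons for each kinase but 2 for Irs2. Levels refer to all exons of a gene together. Exons of Gm20489 cover 30.5% of the exon bases of Il2rg on the same strand, with 37 reads in all against 113375 for Il2rg. Insl3 covers 7.55% of those of Jak3, with 748 reads against 16210 for Jak3. Whether the counting used strand is not stated. Antisense genes overlap exons of Il4ra, Tyk2 and Irs2, and reads from the antisense strand cannot be told apart from theirs. The antisense gene at Tyk2 had 22 reads, against 33202 for Tyk2, and that at Irs2 had 5, against 4268 for Irs2. For Gm44876, which shares 9.51% of the exon bases of Il4ra, no read count was available.

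All 8 genes matched RefSeq's table of starts (GRCm38.p6), and the 250 bases before each start were read for sequence motifs. Printed below are the bases before the start that lie outside GENCODE exons for the chains of the type I receptor, their kinases Jak1 and Jak3 and the adaptor Irs2, because together they make up that receptor and its IRS2 branch. They are Il4ra at chr7:125552021-125552119 (plus strand), Il2rg at chrX:101268256-101268505 (minus), Jak1 at chr4:101265283-101265473 (minus), Jak3 at chr8:71676133-71676295 (plus) and Irs2 at chr8:11008930-11009179 (minus). Capitals mark those motif matches described after the sequences that fall within the printed bases.
Il4ra: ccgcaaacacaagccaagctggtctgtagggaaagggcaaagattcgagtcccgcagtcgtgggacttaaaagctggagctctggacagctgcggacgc
Il2rg: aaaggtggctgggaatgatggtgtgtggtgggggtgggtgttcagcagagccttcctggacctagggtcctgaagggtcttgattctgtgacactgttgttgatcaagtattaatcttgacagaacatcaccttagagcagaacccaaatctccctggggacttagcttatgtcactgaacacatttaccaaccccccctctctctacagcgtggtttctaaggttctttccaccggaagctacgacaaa
Jak1: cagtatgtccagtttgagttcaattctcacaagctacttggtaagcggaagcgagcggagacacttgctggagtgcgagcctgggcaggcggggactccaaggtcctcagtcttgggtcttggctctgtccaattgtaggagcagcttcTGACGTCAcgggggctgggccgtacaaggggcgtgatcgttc
Jak3: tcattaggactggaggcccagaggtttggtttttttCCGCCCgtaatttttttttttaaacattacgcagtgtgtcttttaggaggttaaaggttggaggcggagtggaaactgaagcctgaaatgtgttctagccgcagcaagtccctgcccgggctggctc
Irs2: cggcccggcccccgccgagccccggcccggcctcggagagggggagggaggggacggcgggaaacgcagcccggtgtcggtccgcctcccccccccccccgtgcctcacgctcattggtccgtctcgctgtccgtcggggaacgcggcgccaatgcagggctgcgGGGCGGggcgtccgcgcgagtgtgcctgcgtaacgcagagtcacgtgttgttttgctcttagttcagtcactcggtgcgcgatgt

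Both strands were searched. None of the 8 windows held the letters of a gamma-activated site (TTCNNNGAA, in 7.02% of 32851 windows of this length), the wider spacing bound by STAT6 (TTC and GAA 4 bases apart, 5.85%), an interferon-stimulated response core (GAAA repeated after 2 bases, 2.98%) or the kappa B motif (7.25%). The Jak1 window held the CRE core TGACGTCA 101 bases before the start, a motif in 1.55% of windows. The GC box GGGCGG was present in 7 of the 8 windows, all but that of Il2rg, against 32.7% of windows. In the Il4ra and Jak1 windows it lay 76 and 49 bases before the start, in exon bases not printed above. The full Il4ra window held ATGNAAAT 3 times, 139, 67 and 34 bases before the start, where GENCODE already places an exon, against 5.03% of windows with at least 1 copy. The GC box and ATGNAAAT were chosen after the sequences had been read. These matches are letters in a window only.

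A library held between 5157638 and 105315616 recovered reads. The share of ribosomal RNA-like genes was 14.8% in WT M2 replicate 3, 1.88% in WT M1 replicate 2 and no more than 0.232% elsewhere. Grn had 212 to 497 normalized counts in PGRN knockout M1 and 23.9 to 32.2 in PGRN knockout M2, against 81989 to 91739 in WT M1 and 29365 to 34556 in WT M2. Ywhae had 5191 to 6214 in 14-3-3ε knockout M1 and 4362 to 5131 in 14-3-3ε knockout M2, against 9021 to 9859 in WT M1 and 8203 to 9015 in WT M2. The Ywhae transcript was therefore lowered and not lost in libraries labelled as that knockout. The 9 macrophage markers were all detected in every group. The 10 stromal markers summed to 31010 to 37885 CPM in 14-3-3ε knockout M1, 13147 to 15279 in PGRN knockout M1 and 16999 to 29223 in WT M1, and to 28065 to 35739, 12193 to 16016 and 17927 to 28175 CPM in the M2 cells of those genotypes. The 10 T and NK cell markers together reached at most 7.43 CPM, the B cell list 185, the neutrophil list 362, the dendritic cell list 12.8, the mast cell and basophil list 42.0 and the erythroid and megakaryocyte list 155 CPM. In such bulk RNA, fewer cells of a type and less RNA per cell cannot be told apart. The labels do not say whether the libraries of a group came from separate mice or cultures, so every p-value reflects the scatter among these libraries alone, which may be technical.

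**Figure D1:**
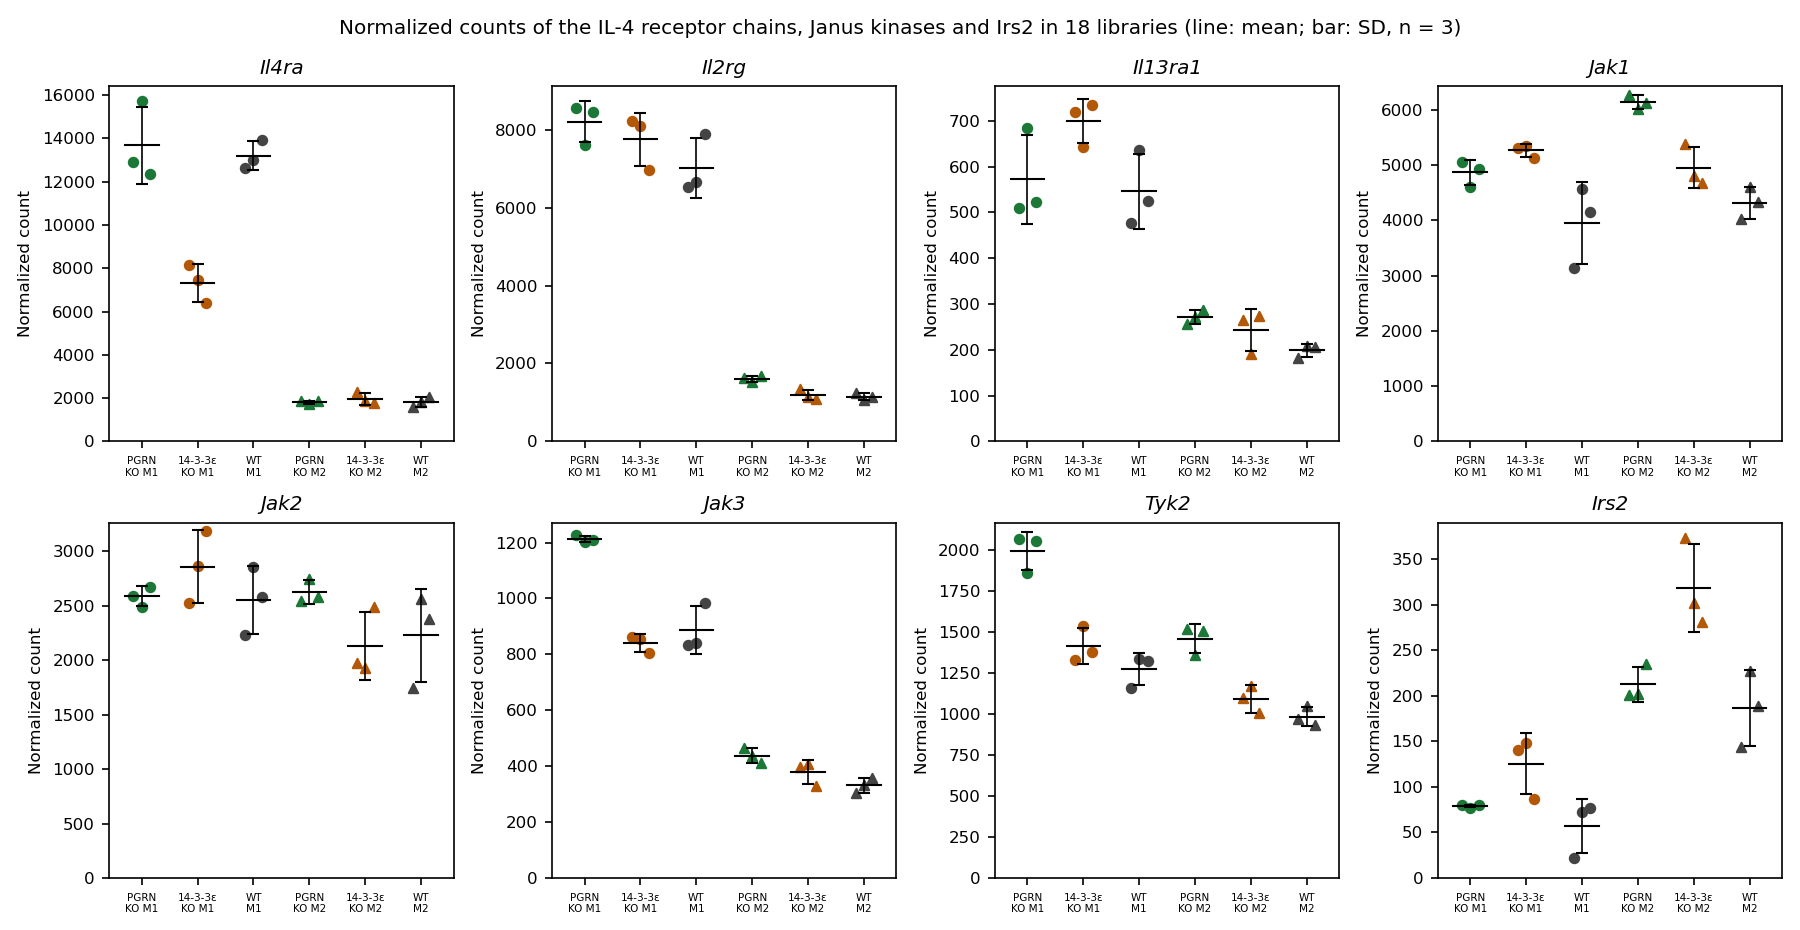
Normalized counts (linear axes from 0) of each gene in the 18 libraries, with circles for M1 and triangles for M2, a line at the group mean and a bar of 1 SD (n = 3). Il4ra, Il2rg, Il13ra1 and Jak3 sat higher in M1 than in M2 in every genotype, Il4ra was lower in 14-3-3ε knockout M1 (6409 to 8153) than in WT M1 (12615 to 13922), and Irs2 was lower in M1 than in M2.

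M1 cells carried more RNA of every IL-4 receptor chain than M2 cells, and this held in each genotype. In WT cells Il4ra was 7.29-fold, Il2rg 6.12-fold, Il13ra1 2.72-fold and Jak3 2.67-fold higher in M1. Tyk2 was 1.29-fold higher, Irs2 was 3.63-fold lower with 5 reads in WT M1 replicate 1, and neither Jak1 nor Jak2 passed the test. Thus 6 of the 8 genes were called in WT cells, 5 higher and 1 lower, where 38.9% of all 21336 tested genes were called in either direction, 18.9% higher and 20% lower. The median difference of the 8 was 0.89 log2 units, beside -0.04 over all tested genes. Of the 8 genes, 7 were called in PGRN knockout cells (5 higher, 2 lower), where 37.5% of genes were called, 18% higher and 19.5% lower. The 14-3-3ε knockout cells also had 7 called (6 higher, 1 lower), against 30% of genes, 15.6% higher and 14.4% lower. Values are log2 differences of normalized counts plus 1 ± SE from limma with Benjamini-Hochberg adjustment, unless a level is named.

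Among the receptor chains, Il4ra, the ligand-binding chain, had 12926, 15710 and 12371 normalized counts in PGRN knockout M1 libraries, against 1859, 1740 and 1858 in PGRN knockout M2 libraries. In 14-3-3ε knockout cells it had 8153, 7439 and 6409 in M1, against 2297, 1852 and 1758 in M2. In WT cells it had 12615, 13015 and 13922 in M1, against 1590, 1812 and 2048 in M2. Every M1 library lay far above every M2 library, and the 14-3-3ε knockout M1 libraries were the lowest of the M1 libraries. The M1 minus M2 difference was 2.90 ± 0.12 in PGRN knockout cells (limma, adjusted p = 4.7e-12), 1.90 ± 0.12 in 14-3-3ε knockout cells (1.4e-09) and 2.87 ± 0.12 in WT cells (4.9e-12).

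Il2rg, the common gamma chain, had 8562, 7602 and 8460 normalized counts in PGRN knockout M1, against 1631, 1527 and 1680 in PGRN knockout M2. The 14-3-3ε knockout libraries had 8210, 8081 and 6970 in M1, against 1333, 1140 and 1082 in M2. The WT libraries had 6519, 6646 and 7900 in M1, against 1243, 1054 and 1140 in M2. M1 and M2 libraries were again well apart, but here the 14-3-3ε knockout M1 libraries overlapped both other genotypes. The M1 minus M2 difference was 2.35 ± 0.10 in PGRN knockout, 2.71 ± 0.10 in 14-3-3ε knockout and 2.61 ± 0.10 in WT cells, with limma adjusted p of 6.5e-12, 1.0e-12 and 1.4e-12 in that order. Il2rg is also a lymphocyte gene, and the T and NK cell markers summed to 4.19 to 6.98 CPM in WT M1, against 1.42 to 2.26 CPM in WT M2. Within that list Lck averaged 2.04 CPM in WT M1, against 0.459 in WT M2, and Zap70 averaged 1.02 against 0.732. Cd3d, Cd3e and Cd3g each averaged at most 0.304 CPM in any group. The B cell list summed to 78.8 to 164 CPM in WT M1, against 46.4 to 141 CPM in WT M2. The part of lymphocytes in the Il2rg values was not tested.

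Il13ra1, the chain that completes the type II receptor, had 509, 685 and 524 normalized counts in PGRN knockout M1, against 255, 271 and 287 in PGRN knockout M2. For the 14-3-3ε knockout the counts were 720, 644 and 734 in M1, against 265, 191 and 274 in M2. In WT cells it had 477, 637 and 524 in M1, against 182, 209 and 205 in M2. Its difference was the smallest of the chains, with M1 above M2 in every library of a genotype. The difference was 1.07 ± 0.15 in PGRN knockout, 1.54 ± 0.15 in 14-3-3ε knockout and 1.45 ± 0.15 in WT cells, with limma adjusted p of 1.6e-05, 2.9e-07 and 4.7e-07.

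Of the kinases, Jak3, the partner of the common gamma chain, moved with the chains. It had 1225, 1203 and 1209 normalized counts in PGRN knockout M1, against 465, 436 and 412 in PGRN knockout M2. In 14-3-3ε knockout cells it had 861, 857 and 804 in M1, against 397, 407 and 329 in M2, and in WT cells 834, 841 and 984 in M1, against 303, 331 and 359 in M2. No M1 library overlapped an M2 library, and the PGRN knockout M1 libraries stood above all others. The difference was 1.47 ± 0.10 in PGRN knockout, 1.16 ± 0.10 in 14-3-3ε knockout and 1.42 ± 0.10 in WT cells, with limma adjusted p of 1.7e-09, 4.8e-08 and 2.8e-09.

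Tyk2, which pairs with IL-13Rα1 and the type I interferon receptor, showed a smaller difference. It had 2066, 1860 and 2052 normalized counts in PGRN knockout M1, against 1516, 1359 and 1504 in PGRN knockout M2. The 14-3-3ε knockout libraries had 1327, 1538 and 1380 in M1, against 1099, 1170 and 1003 in M2, and in WT cells 1159, 1333 and 1323 in M1, against 969, 1049 and 933 in M2. M1 and M2 libraries of a genotype did not overlap, but the PGRN knockout M2 libraries lay above every WT M1 library. The difference was 0.45 ± 0.09 in PGRN knockout, 0.38 ± 0.09 in 14-3-3ε knockout and 0.37 ± 0.09 in WT cells, with limma adjusted p of 0.00047, 0.0027 and 0.0024. Scaling by library totals, which lowers the median of all genes by 0.15 to 0.19 in these comparisons, reduced it to 0.23, 0.15 and 0.19 and ended the call in all 3 genotypes, with adjusted p of 0.11, 0.32 and 0.17. Over all alternatives that p ranged from 0.00012 to 0.11, 0.00059 to 0.32 and 0.00054 to 0.17.

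Jak1, the partner of IL-4Rα, showed little difference between M1 and M2. It had 5053, 4602 and 4935 normalized counts in PGRN knockout M1, against 6270, 6013 and 6114 in PGRN knockout M2. For the 14-3-3ε knockout the counts were 5300, 5349 and 5133 in M1, against 5378, 4800 and 4681 in M2, and in WT cells 3130, 4568 and 4142 in M1, against 4023, 4603 and 4323 in M2. M1 and M2 overlapped in WT and 14-3-3ε knockout cells and were apart, with M1 lower, in PGRN knockout cells. Jak1 fell by 0.34 ± 0.11 in PGRN knockout M1 relative to M2 (limma, adjusted p = 0.018), a call that was lost without PGRN knockout M1 replicate 2 or M2 replicate 1 (p up to 0.073, range over alternatives 0.00084 to 0.073). The difference was 0.09 ± 0.11 in 14-3-3ε knockout cells (limma, adjusted p = 0.61), with the opposite sign under scaling by library totals, and -0.14 ± 0.11 in WT cells (adjusted p = 0.31), neither passing the test. The WT difference passed under scaling by library totals (-0.32, limma adjusted p = 0.046) and without WT M1 replicate 2 (-0.26, 0.0496), and without WT M1 replicate 1 it was 0.013 (adjusted p range over alternatives 0.046 to 0.93).

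Jak2, shared by the interferon gamma receptor and some type II IL-4 receptors, had 2592, 2493 and 2676 normalized counts in PGRN knockout M1, against 2540, 2748 and 2584 in PGRN knockout M2. In 14-3-3ε knockout cells it had 2524, 2866 and 3191 in M1, against 1975, 1928 and 2491 in M2. The WT libraries had 2234, 2858 and 2578 in M1, against 1748, 2565 and 2376 in M2. Only the 14-3-3ε knockout libraries of M1 and M2 did not overlap. There the difference was 0.43 ± 0.14 (limma, adjusted p = 0.023), which failed the threshold under scaling by library totals (0.21, adjusted p = 0.33) and without M1 replicate 2 or 3 or M2 replicate 1 or 2 of that genotype (0.35 to 0.42). Over all alternatives its adjusted p ranged from 0.00041 to 0.33. The values in PGRN knockout (-0.02 ± 0.14) and WT cells (0.21 ± 0.14) did not pass (limma, adjusted p = 0.94 and 0.25).

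Irs2, the adaptor to phosphoinositide 3-kinase, ran the other way. It had 79.8, 77.2 and 79.5 normalized counts in PGRN knockout M1, against 200, 202 and 234 in PGRN knockout M2. The 14-3-3ε knockout libraries had 140, 148 and 86.8 in M1, against 372, 301 and 281 in M2, and in WT cells 22.3, 72.1 and 76.2 in M1, against 144, 227 and 189 in M2. M1 was below M2 in every genotype without overlap. The lowest value, in WT M1 replicate 1, rested on 5 reads, and the WT M1 libraries held at most 48. Irs2 fell by 1.41 ± 0.34 in PGRN knockout, 1.37 ± 0.34 in 14-3-3ε knockout and 1.86 ± 0.34 in WT M1 cells relative to M2, with limma adjusted p of 0.0034, 0.0055 and 0.00035. Without WT M1 replicate 1 the WT difference was -1.295. The WT call held under all 16 alternatives (limma, adjusted p from 2.3e-05 to 0.024).

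**Figure D2:**
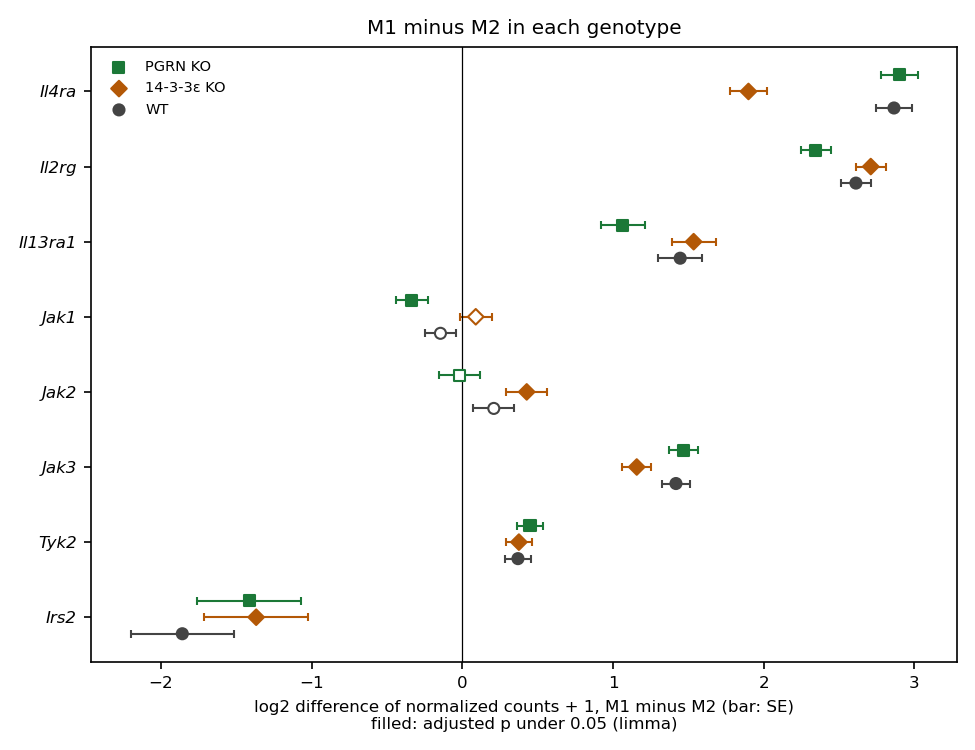
Log2 difference of normalized counts plus 1 (x axis), M1 minus M2, for each gene in PGRN knockout, 14-3-3ε knockout and WT cells, with bars of 1 SE and filled symbols where the limma adjusted p was under 0.05. Receptor chains and Jak3 lie to the right of 0 and Irs2 to the left in all genotypes, and Il4ra of the 14-3-3ε knockout (1.90) lies apart from PGRN knockout (2.90) and WT (2.87).

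Jak1, Jak3 and Tyk2 were higher in PGRN knockout than in WT cells, and neither Il4ra nor Jak2 passed the test. In M1 cells Tyk2, Jak3 and Jak1 rose, and in M2 cells Tyk2, Jak1, Il2rg, Il13ra1 and Jak3 rose. These were 3 of 8 genes in M1, all higher, where 25.3% of tested genes were called, 14.2% higher and 11.1% lower. In M2 they were 5 of 8, all higher, against 19.4% of genes called, 11.1% higher and 8.3% lower. The median of the 8 was 0.27 in M1, beside 0.01 over all genes, and 0.43 in M2, beside 0.

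Tyk2 rose by 0.65 ± 0.09 in PGRN knockout M1 relative to WT M1 (limma, adjusted p = 5.1e-05) and by 0.57 ± 0.09 in M2 (0.00022), with every knockout library above every WT library. Jak3 rose by 0.46 ± 0.10 in M1 (0.0023) and 0.40 ± 0.10 in M2 (0.0065), again without overlap. Jak1 rose by 0.51 ± 0.11 in M2 (limma, adjusted p = 0.0028), where the lowest knockout library had 6013 normalized counts and the highest WT library 4603. In M1 Jak1 rose by 0.32 ± 0.11 (0.036), but that call was lost under 7 of 15 alternatives (p 0.0046 to 0.22), and the value was 0.16 without WT M1 replicate 1. It was also lost without PGRN knockout M1 replicate 1 or 3. Jak2 differed by 0.02 ± 0.14 in M1 (limma, adjusted p = 0.94), with the opposite sign under scaling by library totals, and by 0.25 ± 0.14 in M2 (0.22), neither past the threshold.

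Il2rg rose by 0.49 ± 0.10 in PGRN knockout M2 relative to WT M2 (limma, adjusted p = 0.0022), without overlap, and its difference of 0.23 ± 0.10 in M1 did not pass (0.11), except without WT M1 replicate 3 (0.32, 0.035). Il13ra1 rose by 0.45 ± 0.15 in M2 (0.041), a call lost under 9 of 15 alternatives (p 0.018 to 0.34), among them each of the 6 libraries left out in turn. With the libraries thinned to equal depth that difference was 0.26. Il13ra1 in M1 differed by 0.07 ± 0.15 (limma, adjusted p = 0.80), and scaling by library totals reversed its sign. Il4ra differed by 0.05 ± 0.12 in M1 (0.84) and 0.01 ± 0.12 in M2 (0.98), both of the opposite sign under that scaling. Irs2 differed by 0.65 ± 0.34 in M1 (0.19) and 0.21 ± 0.34 in M2 (0.75), and the M1 value was 0.087 without WT M1 replicate 1, the library with 5 Irs2 reads. None of the 8 genes had a PGRN knockout effect that differed between M1 and M2 by the test of that difference (0 of 8 called and 0 at unadjusted p under 0.05, beside 1.25% of genes called, 0.469% higher and 0.783% lower). With the rises in the PGRN knockout went lower stromal markers, with 0 of 10 called higher and 4 called lower in M1 and 5 lower in M2. Of the 9 macrophage markers 4 were called higher and 1 lower in M1, and 4 higher and 0 lower in M2. Over all tested genes 14.2% were higher and 11.1% lower in M1, and 11.1% and 8.3% in M2. Without Lyz2, which dominates their sum, the other 8 summed to 6370 to 8005 CPM in PGRN knockout M1, against 4323 to 6577 in WT M1, and to 3808 to 4571 CPM in PGRN knockout M2, against 2903 to 3399 in WT M2. The B cell list summed to 17.3 to 60.2 CPM in PGRN knockout M1, against 78.8 to 164 in WT M1. The neutrophil list summed to 46.3 to 113, against 135 to 303 CPM. For the erythroid and megakaryocyte list the sums were 25.4 to 38.5, against 99.3 to 155 CPM. The remaining lists overlapped WT in M1. In M2 only the erythroid and megakaryocyte list of these non-macrophage, non-stromal lists was apart, and lower. The part of these markers in the results was not tested.

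**Figure D3:**
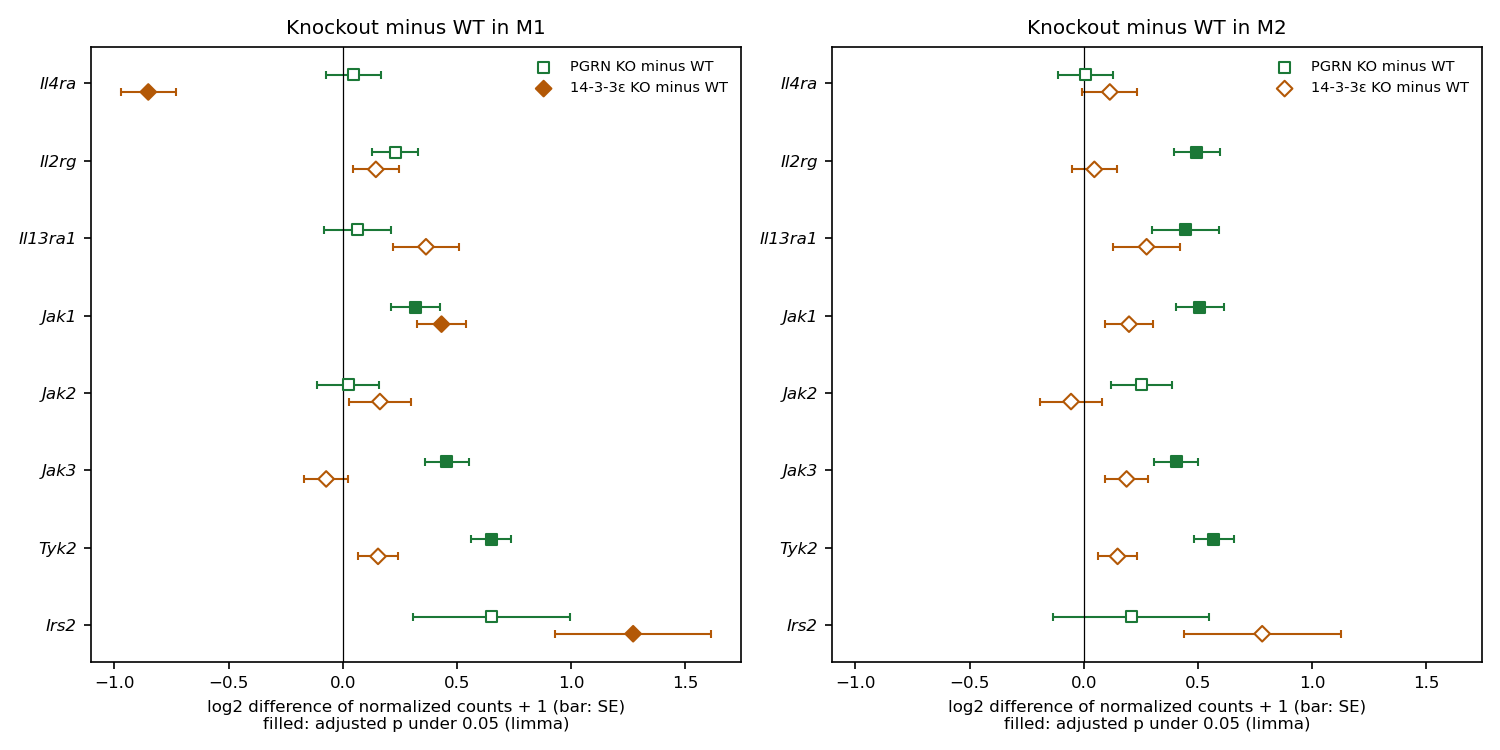
Log2 difference of normalized counts plus 1 (x axis), knockout minus WT, in M1 cells (left) and M2 cells (right), with bars of 1 SE and filled symbols where the limma adjusted p was under 0.05. The PGRN knockout has filled symbols at Jak1, Jak3 and Tyk2 in both panels, and the largest departure below 0 is Il4ra in 14-3-3ε knockout M1 cells (-0.85).

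In 14-3-3ε knockout M1 cells Il4ra was lower than in WT M1, and Jak1 and Irs2 were higher. In M1, 3 of 8 genes were called, 1 lower and 2 higher, where 21.3% of tested genes were called, 9.31% lower and 12% higher. In M2 cells 0 of 8 were called by limma, beside 6.69% of genes, 3.32% higher and 3.37% lower. In that comparison 1 of 8, Irs2, was at unadjusted p under 0.05, and 1 of 8 was called by voom on recovered reads and by a fit of the compared groups alone. The median of the 8 was 0.16 in M1, beside 0.07 over all genes, and 0.17 in M2, beside 0.

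Il4ra fell by 0.85 ± 0.12 in 14-3-3ε knockout M1 relative to WT M1, which is 1.80-fold (limma, adjusted p = 0.00028). The highest knockout library had 8153 normalized counts and the lowest WT library 12615. The call held under all 15 alternatives, with values from -0.93 to -0.76 and adjusted p from 0.00023 to 0.020. The 14-3-3ε knockout M1 libraries held 19883550 to 105315616 reads, against 5157638 to 14518830 in WT M1, and with libraries thinned to equal depth the difference was -0.84. In M2 cells Il4ra was 0.11 ± 0.12 from WT (limma, adjusted p = 0.63), with overlapping libraries.

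The knockout effect on Il4ra in M1 minus that in M2 was itself -0.97 ± 0.17 (limma, adjusted p = 0.031), the one call of 8, beside 0.286% of all genes, 0.141% higher and 0.145% lower. With the replicate number as a block within each genotype, 226 genes were called for this difference, against 61 without the block. The adjusted p for Il4ra ranged from 0.0046 to 0.12 over 22 alternatives. The call was lost in a fit of these 4 groups alone and on leaving out WT M1 replicate 3, 14-3-3ε knockout M1 replicate 2 or 3, WT M2 replicate 1 or 2, or 14-3-3ε knockout M2 replicate 1 or 2, while the difference stayed between -1.06 and -0.85. For Il2rg the same quantity was 0.10 ± 0.14 and for Il13ra1 0.09 ± 0.21, and neither passed (limma, adjusted p = 0.88 and 0.93).

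Irs2 rose by 1.27 ± 0.34 in 14-3-3ε knockout M1 relative to WT M1 (limma, adjusted p = 0.017), with the lowest knockout library at 86.8 normalized counts and the highest WT library at 76.2. Without WT M1 replicate 1, the library with 5 reads, the difference was 0.71 and still passed (0.041). The call was lost without knockout M1 replicate 1 (1.17) or 2 (1.13) and in a fit of the compared groups alone (adjusted p range 0.0059 to 0.18). In M2 Irs2 had 372, 301 and 281 in the knockout, against 144, 227 and 189 in WT, a difference of 0.78 ± 0.34 that did not pass (0.18) although the libraries did not overlap. That M2 difference passed with voom and in a fit of the compared groups alone (limma adjusted p over alternatives 0.023 to 0.44). Jak1 rose by 0.43 ± 0.11 in knockout M1 (0.010), a call lost in the fit of the compared groups alone (range 0.0011 to 0.15), and differed by 0.20 ± 0.11 in M2 (0.28).

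The other kinases and chains did not pass in the 14-3-3ε knockout. Il2rg differed by 0.14 ± 0.10 in M1 and 0.05 ± 0.10 in M2, and Il13ra1 by 0.36 ± 0.15 in M1 and 0.27 ± 0.15 in M2. Tyk2 differed by 0.15 ± 0.09 in both states. Jak2 differed by 0.16 ± 0.14 in M1 and -0.06 ± 0.14 in M2, and Jak3 by -0.07 ± 0.10 in M1 and 0.19 ± 0.10 in M2. The limma adjusted p of these 10 differences ran from 0.087 to 0.86, and scaling by library totals reversed the signs of Jak3 in M1 and Jak2 in M2. Il13ra1 in M1 passed without WT M1 replicate 2 (0.48, limma adjusted p = 0.027). It also passed on leaving out that library together with WT M2 replicate 3. In this knockout the stromal markers were higher, with 5 of 10 called higher and 0 lower in M1, and 2 higher and 0 lower in M2. Of the 9 macrophage markers 2 were called higher and 4 lower in M1. Over all tested genes 12% were higher and 9.31% lower in M1, and 3.32% and 3.37% in M2. Lyz2 had 1521 to 5828 CPM in knockout M1, against 7519 to 13287 in WT M1. In M2 it had 469 to 1603 CPM in the knockout, against 4057 to 4372 in WT. Without Lyz2 the other 8 summed to 6746 to 7759 CPM in knockout M1, against 4323 to 6577 in WT M1. Their M2 sums were 3206 to 3546 CPM in the knockout, against 2903 to 3399 in WT. Whether these markers bear on the results was not tested.

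Set directly against the PGRN knockout, the 14-3-3ε knockout was lower in 3 of 8 genes in M1 and 2 of 8 in M2, where 25% of tested genes were called in M1 (12.5% in each direction) and 18.2% in M2 (8.29% higher, 9.92% lower). In M1 the calls were Il4ra (-0.90 ± 0.12, limma adjusted p = 3.2e-05), Jak3 (-0.53 ± 0.10, 0.00055) and Tyk2 (-0.49 ± 0.09, 0.00039). In M2 they were Il2rg (-0.45 ± 0.10, 0.0039) and Tyk2 (-0.42 ± 0.09, 0.0021), and both fell short of the threshold under scaling by library totals, which raises the median of all genes by 0.15 here. Adjusted p over the alternatives ran from 0.0021 to 0.087 for Il2rg and 0.0011 to 0.14 for Tyk2. Jak1 in M2 (-0.31 ± 0.11, limma adjusted p = 0.052) did not pass there but passed under 5 of 14 alternatives (0.0071 to 0.54). Markers moved with this comparison too, and their part was not tested. Of the 10 stromal markers 8 were called higher in 14-3-3ε knockout M1 and 7 in M2 than in the PGRN knockout, with 0 lower. Of the 8 mast cell and basophil markers 5 were higher in M1 and 2 in M2, at sums of 18.6 to 28.2 CPM in 14-3-3ε knockout M1, against 7.22 to 17.8 CPM in PGRN knockout M1. Of the 9 macrophage markers 1 was higher and 5 lower in M1, and 0 higher and 5 lower in M2. The knockouts' own comparisons share the WT libraries.

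Per kilobase of merged exons, the order of the genes differed between M1 and M2. In M1 cells of every genotype Il2rg came first and Il4ra next, without overlap, at 2942 and 2197 normalized counts per kb in WT, and Jak1 and Jak2 followed, overlapping in WT (546 and 508) but not in the knockouts. In WT M1, Tyk2 (185), Jak3 (166) and Il13ra1 (147) came next as overlapping neighbours. In PGRN knockout M1 the same order held without overlap (290, 227 and 154), and in 14-3-3ε knockout M1 Il13ra1 (188) stood between Tyk2 (206), which it overlapped, and Jak3 (157). Irs2 came last in every M1 group, at 8.99 per kb in WT. In WT M2 cells Jak1 came first at 597 per kb, ahead of Il2rg (480) and Jak2 (443), which overlapped, and Il4ra (303). Tyk2 (143), Jak3 (61.8), Il13ra1 (53.5) and Irs2 (29.5) then followed without overlap. In the knockout M2 groups Jak1 was also first and Irs2 last. The overlaps depend on the length used. With the longest coding transcript, Jak1 (638 to 931 per kb) and Jak2 (444 to 568) did not overlap in WT M1. Nor did Il2rg (631 to 744) and Jak2 (348 to 510) in WT M2.

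Ratios within a library do not depend on how libraries are scaled. Jak3 made up 13.3 ± 0.439% of the summed kinase level per kb in PGRN knockout M1, against 4.91 ± 0.260% in PGRN knockout M2. In 14-3-3ε knockout cells the share was 9.48 ± 0.633% in M1, against 5.28 ± 0.676% in M2, and in WT cells 11.9 ± 1.53% in M1, against 4.98 ± 0.388% in M2 (SD, n = 3 each). The shares are parts of a whole, so a larger Jak3 share leaves less for the other kinases. The Jak1 share was 38.7 ± 2.40% in WT M1, against 48.1 ± 2.10% in WT M2. Its level differed by -0.14 ± 0.11 between them and did not pass (limma, adjusted p = 0.31). Tyk2 made up 16.6 to 17.3% in PGRN knockout M1 libraries, against 12.5 to 14.1% in WT M1 libraries. With the longest coding transcript as length, Jak1 took 44.5% in WT M1, against 54.8% in WT M2, and Jak3 took 12.4% in WT M1, against 5.13% in WT M2.

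Among the chains, Il2rg exceeded Il13ra1 per kb of merged exons by 14.8 to 26.1 times in M1 libraries, against 6.14 to 10.6 times in M2 libraries. With the longest coding transcript as length, these ranges were 21.1 to 37.4 in M1 and 8.78 to 15.2 in M2. The level of Il4ra over that of Il2rg was 0.395, 0.366 and 0.366 in 14-3-3ε knockout M1, against 0.770, 0.779 and 0.701 in WT M1, so the knockout libraries were all at about the same low ratio. In M2 the ratio was 0.685, 0.646 and 0.646 in the 14-3-3ε knockout, against 0.509, 0.684 and 0.714 in WT, with overlap. PGRN knockout M1 libraries stood at 0.600, 0.822 and 0.582, against 0.453, 0.453 and 0.440 for PGRN knockout M2 libraries. The M2 libraries of the PGRN knockout thus lay below all WT M2 libraries.

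**Figure D4:**
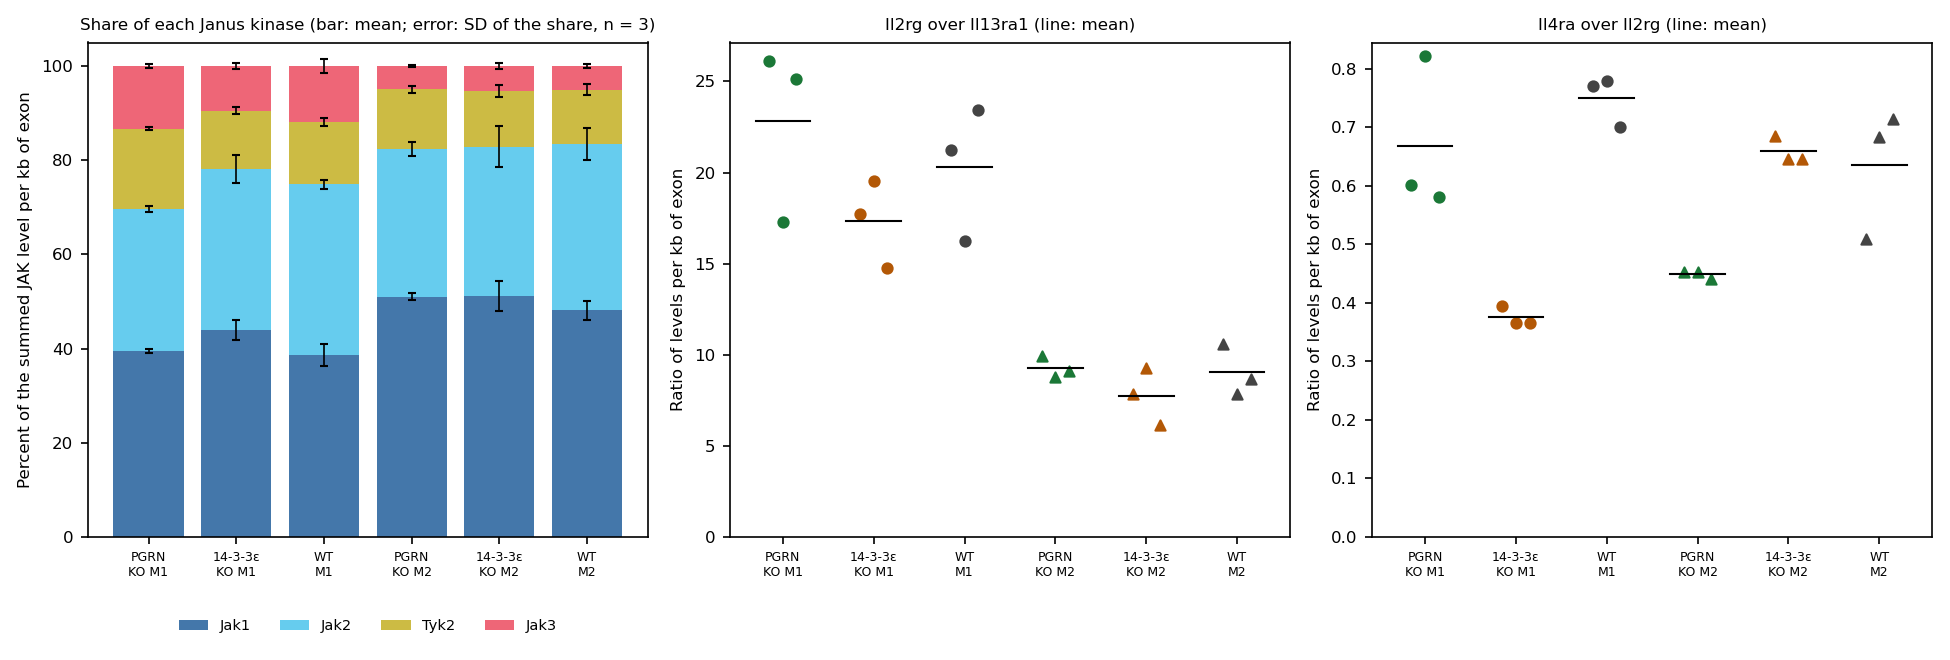
Left, stacked bars of each Janus kinase's percent of the summed kinase level per kb of exon (mean, error bar 1 SD of that share, n = 3); middle and right, the ratio per kb of Il2rg to Il13ra1 and of Il4ra to Il2rg in each library, with a line at the mean. The Jak3 share is larger in M1 (9.48 to 13.3%) than in M2 (4.91 to 5.28%), and the ratio of Il4ra to Il2rg is lowest in 14-3-3ε knockout M1.

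Beyond these genes, lists of other parts of the pathway were read from the same fit of WT M1 and M2 cells. In that comparison 18.9% of all tested genes were higher and 20% lower in M1. A list of 8 other chains of the common gamma, IL-4 and IL-13 receptors also held Crlf2, a chain of the TSLP receptor. In it 5 were higher in M1, Crlf2 (0.77) among them, and 2 lower. Il15ra (3.01 ± 0.20) and Il21r (2.80 ± 0.17) were higher, and Il7r (-2.30 ± 0.26) and the IL-13 decoy receptor Il13ra2 (-3.03 ± 0.42) lower. The median was 0.88. Of 24 other receptor chains that pair with Janus kinases, 11 were higher and 6 lower (median 0.14), among them Il10ra (2.03), Ifnar2 (1.17) and Csf3r (1.11), all higher. Il23r was also called higher, with a mean of 138 normalized counts in WT M1 and no read in WT M2. Of 8 ligands of the listed receptors, Tslp among them, 5 were tested and 3 were higher in M1, Il15 (3.05), Il7 (1.82) and Il13. The call for Il13 rested on 1, 2 and 3 reads in WT M1, against none in WT M2, and Il4 had at most 6 reads in a WT M1 library and 15 in a WT M2 library.

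Downstream, the transducers of the receptor were divided, with 4 of 26 higher and 9 lower in WT M1 (median -0.04), beside 18.9% and 20% of all tested genes. Dok2, an adaptor, fell by 1.59, Tsc1, a brake on mTOR, by 0.86 and Nfil3 by 0.77, while Pik3cd, a catalytic subunit of phosphoinositide 3-kinase, rose by 0.96. Stat6, the transcription factor of the pathway, named here after its values were seen, differed by 0.13 ± 0.11 between WT M1 and M2 (limma, adjusted p = 0.36). It rose by 0.51 ± 0.11 in PGRN knockout M1 (0.0019) and 0.50 ± 0.11 in PGRN knockout M2 (0.0031) relative to WT. Of 26 inhibitors 7 were higher and 9 lower (median 0.02). Socs3, an inhibitor of JAK signalling, rose by 2.43 and the phosphatase Ptpn6 by 2.15 in WT M1, while Cish, a STAT target and inhibitor, fell by 2.92 and Socs6 by 1.80.

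Of 31 IL-4 target genes, 27 were lower and 0 higher in WT M1 (median -3.68), among them Egr2 (-4.72), Clec7a (-3.68), Pdcd1lg2 (-4.19) and Chil4, which had no read in WT M1 and a mean of 403 normalized counts in WT M2. Of 26 interferon-responsive genes 24 were higher and 1 lower (median 5.78), with Ifit2 (6.86), Usp18 (6.01) and Tap1 (3.52) higher, as was Rsad2. Of 7 tested genes of the insulin and IGF1 branch, 1 was higher and 3 lower (median -0.48), where Igf1 (-2.51), Igf2r (-0.75) and the insulin receptor Insr (-0.48) fell in M1 and Irs3 (1.34) rose. The counts of all these lists stand beside 18.9% of all tested genes higher and 20% lower, and the medians beside -0.04. M1 cells, which received no IL-4, thus had more receptor RNA and less RNA of IL-4 target genes than M2 cells.

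Among the knockouts, the transducers in PGRN knockout cells had more calls higher than lower than WT, where 10 of 26 were higher and 4 lower in M1 and 13 higher and 2 lower in M2, with medians of 0.23 and 0.37. Over all tested genes 14.2% were higher and 11.1% lower in that M1 comparison and 11.1% higher and 8.3% lower in M2, with medians of 0.01 and 0. In the 14-3-3ε knockout 8 were higher and 2 lower in M1 and 2 higher and 0 lower in M2, beside 12% and 9.31% of all genes in M1 and 3.32% and 3.37% in M2. Of the 31 IL-4 targets, 5 were higher and 10 lower in PGRN knockout M2 than in WT M2, where 19.4% of all genes were called. In 14-3-3ε knockout M2, where 6.69% of all genes were called, 0 were higher and 1 lower, and these counts were not tested against each other. In 14-3-3ε knockout M1 10 of the 31 targets were higher and 5 lower than in WT M1 (median 0.19), beside 12% of all genes higher and 9.31% lower (median 0.07). Insr, which like the IL-4 receptor signals through Irs2, rose by 0.48 in 14-3-3ε knockout M1 and 0.39 in M2 and by 0.44 in PGRN knockout M1 and 0.75 in M2 (limma, adjusted p = 0.0063, 0.037, 0.0065 and 0.00012).

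The genes whose log2 levels followed each member most closely over the 18 libraries, out of 10236 searched, were found by Pearson's r, as a description over libraries that share groups and scaling. They included Serp1, Nmi and Glrx for Il4ra (r = 0.99 each), Mov10 (0.996), Lgals3bp and Dhx58 (0.995 each) for Il2rg, and H2-T24, Clec4n and Eif2ak2 for Il13ra1 (0.97 to 0.98). For Jak3 they included Tifa, Fez2 and Cflar (0.99 each), for Tyk2 Cers6 (0.98) and Gosr1 (0.97), for Jak1 Mlxip and Xiap (0.96 each) and for Irs2 Tnpo3, Rad21 and Pbrm1 (0.98 each). Jak2 had no close companion, with r of 0.80 to 0.82 for Map4k3, Ankrd33b and Ubp1. Serp1, Nmi and Glrx were picked over libraries that include 14-3-3ε knockout M1, so their lower means there follow from the choice. For Serp1 the mean was 7656 normalized counts in 14-3-3ε knockout M1, against 11637 in WT M1. Among the members, Il4ra correlated with Il2rg (r = 0.96), Jak3 (0.96) and Il13ra1 (0.89) and ran against Irs2 (-0.82) over the 18 libraries. Those values include the differences between groups. For deviations from the group means, r with Il4ra was 0.34 for Il2rg, 0.57 for Jak3 and 0.39 for Il13ra1. With Irs2 it was 0.45, of the opposite sign.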

How the data were processed

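RNA-seq of 18 libraries, 3 in each of 6 groups, was deposited as 1 table. Its values are log2 of normalized counts plus 1, as the authors deposited them, and STAR, RSEM 1.3.1, DESeq2 and GRCh38 are named per the submitters' processing notes. The gene IDs are mouse IDs, so that build was not used. Reversing the log2 gave whole multiples of 1 read in 100% of values (within 0.1), from which reads were recovered. Genes reaching 1 normalized count in 3 or more libraries (21336) were fitted over 6 groups with limma 3.58.1 (R 4.3.3, trend and robust), with Benjamini-Hochberg adjustment over all tested genes in each of 11 comparisons and a threshold of 0.05. Descriptions used Python 3.11.15, with matplotlib 3.10.9, scipy 1.17.1, pandas 2.3.3 and numpy 2.4.6, and took lengths from GENCODE M21. The fit was tested on simulated data.

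Genes named besides the 8 members are Grn and Ywhae, up to 4 genes of each pathway list with the smallest p between WT M1 and M2, and the 3 genes of at least 5 CPM most correlated with each member, of which some are not reported here. Exceptions are named in the text. The members and lists were chosen with earlier results of these data known. The alternatives were a pseudocount of 0.1, no filter, at least 5 CPM in 3 libraries, a fit of the compared groups only, a replicate block, voom on recovered reads, thinning to equal depth, scaling by library totals, leaving out the pair of libraries with most ribosomal RNA-like reads, and leaving out each library. Same-numbered M1 and M2 libraries deviated together in all 3 pairs of the 14-3-3ε knockout (r = 0.53, 0.40 and 0.43). They did not in WT (0.35, 0.01 and -0.35) or the PGRN knockout (0.12, 0.34 and -0.09). WT M1 replicate 2 and WT M2 replicate 3, of unlike number, reached 0.48. The labels state no pairing, so whether the numbers pair libraries is not known, and the main fit used none.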

Additional observations from a re-analysis of the deposited data

Results flagged for a closer look

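The effect of the 14-3-3ε knockout on Il4ra differed between M1 and M2 cells by the test of that difference, at -0.97 ± 0.17 log2 units (limma, adjusted p = 0.031). Il4ra was lower in the knockout in 3 of 3 M1 libraries than in any WT M1 library, and the M2 libraries of the knockout and WT overlapped. The adjusted p ranged from 0.0046 to 0.12 over 22 alternatives.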

How the results depend on the processing

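Of 1424 values under alternatives, 1317 kept direction and side of the threshold, 48 reversed, 40 lost and 19 gained a call. No reversal touched a call, and 12 of 37 calls were lost somewhere. The replicate block over all groups changed no call or sign of a member. The block within each genotype, chosen after seeing the data, put Jak2 in WT M1 minus M2 past the threshold (0.21, adjusted p = 0.029) and raised genes called for the PGRN and 14-3-3ε differences of effects to 765 and 226, beside 267 and 61. Fitting only the compared groups gave 5218 genes for WT M1 minus M2 (8303 in the fit of all groups), 2134 for PGRN minus WT in M1 (5399), 385 for 14-3-3ε minus WT in M1 (4541), and 93 and 8 for the differences of effects. Members called were then 1 for 14-3-3ε minus WT in M1 and 1 in M2, 5 for 14-3-3ε minus PGRN in M2 and 0 for the 14-3-3ε difference of effects. With voom they were 1 for 14-3-3ε minus WT in M2, and 5 in M1 and 4 in M2 for 14-3-3ε minus PGRN, with 15 genes for the 14-3-3ε difference of effects. Thinning gave 2825 genes for 14-3-3ε minus WT in M1, 792 in M2 (1427), and 103 and 24 for the differences of effects. Library totals gave 0 members for 14-3-3ε minus PGRN in M2 and 37 genes for the 14-3-3ε difference of effects, and leaving out the pair with most ribosomal RNA-like reads gave 120. Signs reversed as follows. With voom, Il13ra1 PGRN minus WT in M1 was -0.032 and the Tyk2 14-3-3ε difference of effects -0.0071. With thinning, Jak2 in PGRN M1 minus M2 was 0.016, Il4ra PGRN minus WT in M2 -0.028, Il13ra1 14-3-3ε minus PGRN in M2 0.043 and the Jak3 PGRN difference of effects -0.016. With library totals, PGRN minus WT in M1 was -0.030 for Il13ra1, -0.051 for Il4ra and -0.073 for Jak2, and -0.042 for Il4ra in M2. The same scaling gave 14-3-3ε minus PGRN of 0.0042 for Il13ra1 in M2 and 0.092 for Il2rg in M1, Jak1 14-3-3ε M1 minus M2 of -0.13, and 14-3-3ε minus WT of 0.070 for Jak2 in M2 and 0.0068 for Jak3 in M1. It gave differences of effects of -0.0089 for Il4ra (PGRN) and -0.040 for Tyk2 (14-3-3ε). Without WT M1 replicate 2 and WT M2 replicate 3 the PGRN differences of effects were -0.062 for Il4ra and -0.045 for Jak3. Leaving out single libraries, genes called ranged from 7248 to 8932, 6984 to 7407 and 5388 to 5547 for M1 minus M2 in WT, PGRN and 14-3-3ε cells, 3887 to 6385 and 2752 to 3725 for PGRN minus WT in M1 and M2, and 2272 to 6458 and 577 to 1650 for 14-3-3ε minus WT. They ranged from 4120 to 4756 and 2785 to 3599 for 14-3-3ε minus PGRN, and from 100 to 659 and 9 to 192 for the PGRN and 14-3-3ε differences of effects. The lowest counts of 14-3-3ε minus WT came without 14-3-3ε M1 replicate 2 and without WT M2 replicate 3. Members called were 6 to 7 in each M1 minus M2, 2 to 4 and 4 for PGRN minus WT, 2 to 4 and 0 for 14-3-3ε minus WT, 3 and 2 to 3 for 14-3-3ε minus PGRN, and 0 and 0 to 1 for the differences of effects. Signs also turned on leaving out single libraries for Jak1 in WT M1 minus M2 (-0.26 to 0.013) and Jak2 in PGRN M1 minus M2 (-0.045 to 0.013). For PGRN minus WT they turned for Il13ra1 (-0.069 to 0.18), Jak2 (-0.070 to 0.11) and Il4ra (-0.059 to 0.11) in M1 and Il4ra in M2 (-0.084 to 0.099). For 14-3-3ε minus WT they turned for Jak3 in M1 (-0.11 to 0.0047) and for Il2rg (-0.042 to 0.11), Jak2 (-0.22 to 0.055) and Il4ra (-0.0021 to 0.20) in M2, and for 14-3-3ε minus PGRN for Il4ra in M2 (-0.011 to 0.18). Among differences of effects they turned in the PGRN knockout for Irs2 (-0.12 to 0.74), Il4ra (-0.068 to 0.13) and Jak3 (-0.0091 to 0.13), and in the 14-3-3ε knockout for Il13ra1 (-0.076 to 0.21), Tyk2 (-0.059 to 0.058) and Irs2 (-0.073 to 0.79). The cause was not tested. Depth limits Irs2 in WT M1 most, at 5 to 48 reads.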
